A study of Daphnia magna with 30 samples.

Results

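The 150 brightest probes on a Daphnia magna expression array were described, out of 14338 non-control probes (1.05%). The level of a probe was the log2 of its processed signal, a spot brightness from which the background had been subtracted, minus the 75th percentile of that signal over the non-control spots of the same array, so that 0 stands for the percentile itself. The spots of a probe that was printed more than once were averaged, and probes were ranked by their mean level over all 30 arrays. The rule left out DM02748P1, whose mean level of 4.53 placed it at rank 398, so the list would have been the same with it. The level chose these probes and is therefore given as a description without a test. Brightness depends on the sequence of a probe as well as on its transcript, so the ranks are an order of brightness and not of the number of transcripts.

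Each array held the RNA of 1 whole adult female, 21 days old, with any eggs and neonates in its brood pouch. Animals had been reared at 25 °C under 4L:20D, 8L:16D, 12L:12D, the control photoperiod 16L:8D, or 20L:4D, where the numbers are hours of light and of dark. Each photoperiod had 3 chambers, and 2 animals of each chamber, lettered A and B, gave 6 arrays per photoperiod. All animals were of 1 laboratory genotype, and animals of a photoperiod shared 1 light box, so that photoperiod and box cannot be told apart. Per the methods the animals were collected within the first hour of light, so day length and the number of dark hours just before collection cannot be told apart.

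Daphnia magna is a planktonic freshwater crustacean that feeds by filtering algae and usually reproduces without males. An adult female passes through repeated cycles in which a moult, the release of a brood and the laying of the next eggs follow each other, and yolk proteins, cuticle proteins and digestive enzymes are made in large amounts at different times of that cycle. In a whole animal a bright probe can reflect a gene that all cells use or a gene that a few cells use intensely. More or fewer cells of a type and more or less RNA per cell cannot be told apart in such samples.

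The identity of most of these transcripts was not known from the sources used here. The study annotated 959 probes, those it had called in either of its trials, and 8 of the 150 were among them (5.33%, against 6.69% of all probes). Of these 8, 2 carried the name of a protein with a known function. DM02197P1 (rank 64) was annotated as a putative ATP synthase lipid-binding protein of the mitochondrion, which forms the membrane ring through which protons drive ATP synthesis. DM06652P1 (rank 125) was annotated as a sulfotransferase, a class of enzyme that transfers sulfonate groups to small molecules or to sugars. DM08419P1 (rank 80), DM07799P3 (rank 60), DM01969P1 (rank 110) and DM02344P1 (rank 145) were annotated as uncharacterised or hypothetical proteins, DM07685P2 (rank 71) had no significant match, and the name of DM02109P1 (rank 124) was blank. The study had called all 7 of those with a listed probe sequence in its other trial, on animals not analysed here.

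The probe sequences of 4 annotated members are shown because they are what the array measured for these transcripts. Capitals mark the longest stretch that occurs at 2 places in the same probe.
DM02197P1: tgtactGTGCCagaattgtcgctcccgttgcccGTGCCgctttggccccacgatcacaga
DM06652P1: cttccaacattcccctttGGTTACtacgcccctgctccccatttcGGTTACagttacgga
DM08419P1: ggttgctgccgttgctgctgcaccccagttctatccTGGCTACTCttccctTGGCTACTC
DM07685P2: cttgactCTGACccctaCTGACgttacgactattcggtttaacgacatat
The stretch of DM08419P1 was 9 bases long. A repeated stretch of at least 8 bases was found in 1.78% of the 953 probe sequences in the study's list, and the median was 5 bases.

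The array-wide percentile that served as the scale ranged from 359 to 643 intensity units over the 30 arrays, and 70.1% to 89.9% of probes were well above background. The lowest share, 70.1%, was in the 16L:8D animal of chamber 3 lettered A, while the other 29 arrays lay at 75.3% or above. Set changes that rest on this animal are given without it as well. All 150 members were well above background on all 30 arrays, and no spot was saturated. The brightest spot of a member reached 78.3% of the saturation value.

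Mean levels ran from 10.08 for DM00429P1, or 1081 times the 75th percentile, to 6.17 for DM02960P3, or 71.8 times the percentile. DM05884P3 and DM07690P1, both just inside the limit, averaged 6.19 and 6.19, and the first 3 probes outside it, DM08446P1, DM05651P1 and DM02425P1, averaged 6.12, 6.12 and 6.11. These differences at the limit were far smaller than the residual SD between animals of 0.246 to 0.793 for the same 6 probes. The 10 brightest were DM00429P1, DM02924P1, DM08143P1, DM07707P3, DM01597P2, DM07689P2, DM02775P1, DM11755P3, DM08998P1 and DM08288P1, with mean levels of 10.08 to 9.52. None of the 10 carried an annotation.

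**Figure D1:**
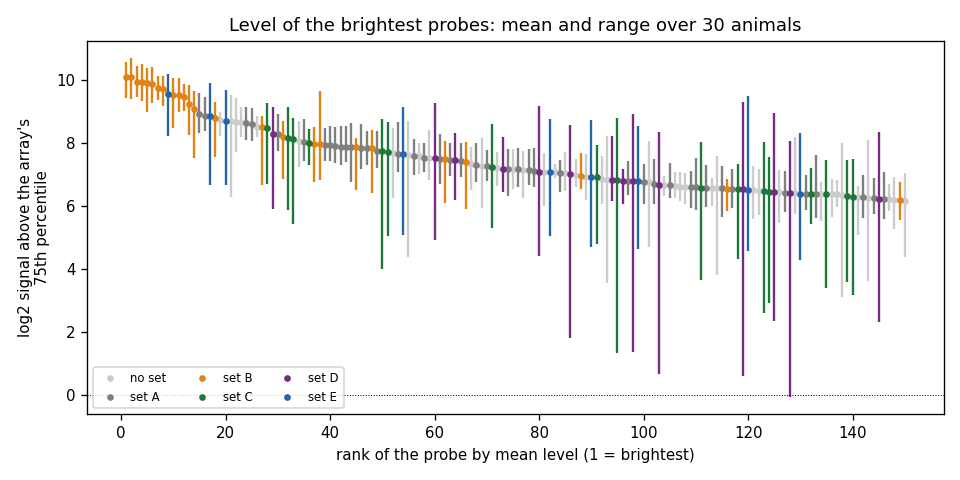
Mean level (points) and range over the 30 animals (bars) of the 150 brightest probes, in log2 units above the 75th percentile of the array, by rank, coloured by the set of probes that varied together between animals. None of the 10 brightest went below 8.22 in any animal, while DM08007P1 reached down to -0.08.

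A list of bright probes made from 1 array would have differed from this one. Of the 150, 58 were among the 150 brightest probes of every array, 134 of at least 15 arrays and 16 of fewer than 15. A single array had 100 to 138 of the members among its own 150 brightest probes (median 124.5). The lowest number, 100, was found in 2 arrays of 16L:8D, and the ranges of the photoperiods overlapped: 120 to 128 under 4L:20D, 124 to 133 under 8L:16D, 106 to 133 under 12L:12D, 100 to 138 under 16L:8D and 101 to 128 under 20L:4D. By the mean of a single photoperiod, 136 (20L:4D) to 140 (12L:12D) of the members remained.

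The 150 members held a large part of the light of an array. Their share of the summed processed signal was 44.4% at the lowest, 53.8% at the median and 60.8% at the highest of the 30 arrays, and that of the 10 brightest was 9.20%, 13.0% and 17.2%. Medians of the share in all members were 53.3% under 4L:20D, 56.1% under 8L:16D, 53.1% under 12L:12D, 53.9% under 16L:8D and 52.7% under 20L:4D, and the animals of the photoperiods overlapped. Under 16L:8D alone the share ranged from 44.4% to 59.6%.

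DM00429P1, the brightest, lay between 9.43 and 10.24 under 4L:20D (median 10.03), 9.72 and 10.45 under 8L:16D (median 10.08), 9.92 and 10.09 under 12L:12D (median 9.98), 10.06 and 10.41 under 16L:8D (median 10.23), and 9.72 and 10.56 under 20L:4D (median 10.12). The photoperiods overlapped, and the smallest range was that of 12L:12D. DM02775P1, another of the 10, averaged 9.69 ± 0.13 under 4L:20D, 9.69 ± 0.26 under 8L:16D, 9.62 ± 0.04 under 12L:12D, 9.93 ± 0.13 under 16L:8D and 9.77 ± 0.33 under 20L:4D (SD, n = 6 each). DM01597P2 was lower in the 16L:8D animal with the fewest probes above background, at 8.97, than in the other 16L:8D animals, which lay between 9.97 and 10.30.

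The spread between animals was measured by the residual SD, the SD on the log2 scale that remained after photoperiod, letter and their interaction had been fitted. Over the 150 members its median was 0.378, with quartiles of 0.305 and 0.634 and a range of 0.103 to 2.57. The median was 0.412 over the next 150 probes by level, 0.467 over all probes, and 0.365 over the 8770 other probes well above background on all arrays. A residual SD above 1 was found for 19 members (12.7%), for 14.1% of all probes, for 21 of the next 150 by level and for 7.71% of those 8770 probes. The level covered more than 2 log2 units over the 30 animals for 51 members and less than 1 unit for 19.

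The spread is also given by photoperiod, and its differences were not tested. The median SD of the members over 6 animals was 0.348 under 4L:20D, 0.269 under 8L:16D, 0.220 under 12L:12D, 0.428 under 16L:8D and 0.416 under 20L:4D, and over all probes it was 0.429, 0.346, 0.364, 0.487 and 0.460 in the same order of day length. An SD above 1 was found for 9 members under 4L:20D, 11 under 8L:16D, 19 under 12L:12D, 29 under 16L:8D and 22 under 20L:4D. The 12L:12D animals thus had the lowest median SD while a larger number of members varied widely in them than under 4L:20D or 8L:16D. The share of all probes with an SD above 1 was not counted by photoperiod, so these numbers cannot be called particular to the members.

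**Figure D2:**
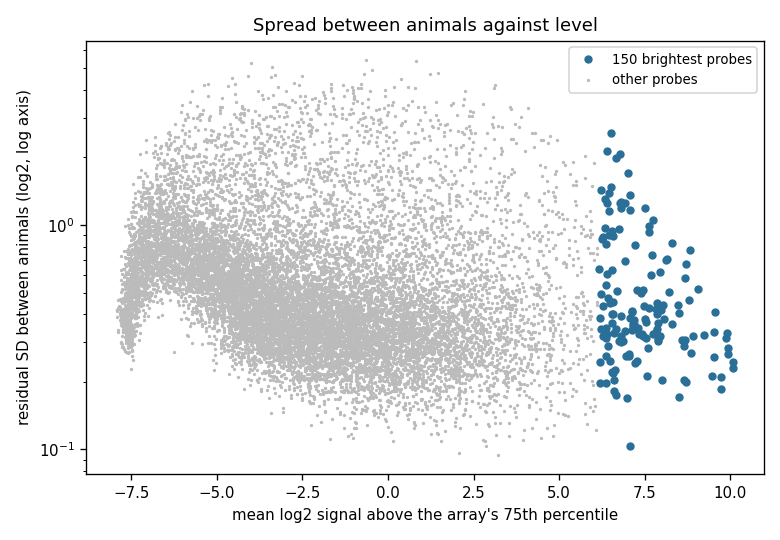
Residual SD between animals (log2, logarithmic axis) against mean level (log2 above the 75th percentile of the array) for the 150 brightest probes (large points) and the other probes (small points). The 150 range from 0.103 to 2.57 and lie at mean levels of 6.17 to 10.08.

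Repeat spots on an array gave the part of this spread that arose between spots within an array. Of the 150 members, 29 were spotted in duplicate. Their spot-to-spot SD had a median of 0.116 and a range of 0.041 to 0.233, against a residual SD between animals with a median of 0.321. The residual SD was larger in 28 of the 29, and its ratio to the spot-to-spot SD had a median of 3.02 over the 29. DM01678P1 was the exception, with a residual SD of 0.199 and a spot-to-spot SD of 0.233. The spot-to-spot SD is that of a single spot, whereas the levels averaged the duplicate spots. The part of spotting in a level is therefore smaller than this SD, also for DM01678P1. Duplicate spots share the RNA, labelling, array and scan of an animal, so the spread between animals still includes labelling, hybridisation and scanning.

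The 5 steadiest members were DM01553P1 (rank 83, residual SD 0.103), DM01958P4 (rank 87, 0.169), DM01563P1 (rank 26, 0.172), DM14554P1 (rank 104, 0.174) and DM06385P3 (0.182). DM01553P1 ranged from 6.88 to 7.32 over the 30 animals. Its photoperiod means were 6.97 ± 0.09 under 4L:20D, 7.14 ± 0.08 under 8L:16D, 7.10 ± 0.09 under 12L:12D, 7.06 ± 0.15 under 16L:8D and 7.02 ± 0.08 under 20L:4D (SD, n = 6 each), which overlapped. DM14554P1 lacked a value on 1 array and DM06385P3 on 3, because their spots had been marked as outliers.

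The 5 most variable members differed between animals by orders of magnitude. DM06238P1 (rank 119, residual SD 2.57) lay between 6.06 and 9.29 under 4L:20D (median 8.47), 6.40 and 9.15 under 8L:16D (median 8.79), 1.30 and 9.14 under 12L:12D (median 6.42), 0.61 and 8.84 under 16L:8D (median 5.21), and 0.91 and 8.28 under 20L:4D (median 6.66). The highest animals of the 5 photoperiods lay between 8.28 and 9.29, and the animals below 6.06 were all found under 12L:12D, under 16L:8D or under 20L:4D. DM08007P1 (rank 128, residual SD 2.13), DM06802P2 (rank 98, 2.07), DM09208P1 (rank 103, 1.99) and DM11790P4 (rank 86, 1.71) had similarly wide ranges, with highest values of 8.04 to 8.92 and lowest values of -0.08 to 1.81. All 5 were without annotation.

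**Figure D3:**
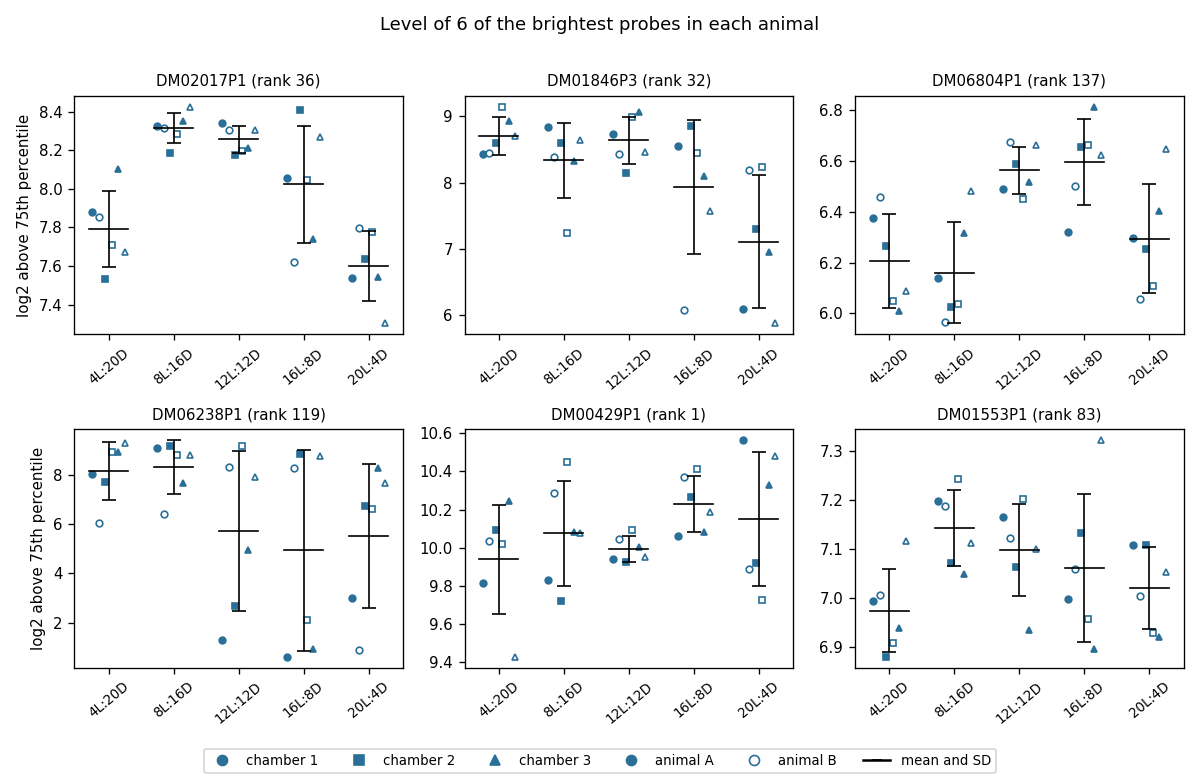
Level (log2 above the 75th percentile of the array) of 6 members in each animal, by photoperiod; the symbol gives the chamber, filled for animal A and open for animal B, with the mean and SD of 6 animals. DM06238P1 spans 0.61 to 9.29, DM01553P1 6.88 to 7.32, and DM02017P1 is lowest under 20L:4D, at 7.30 to 7.79.

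Much of the spread was shared between probes. After the photoperiod means had been removed, the first 3 principal components of the members over 30 animals held 48.1%, 15.7% and 14.5% of the variance. Clustering the members by the correlation of these deviations (average linkage, joined down to a mean r of 0.5) placed 108 of the 150 in 5 sets of 9 or more probes, here called A to E, and 42 in none of them. The sets were made from the values themselves and are given as descriptions without a test. The median correlation between 2 members of a set was 0.753 in A, 0.645 in B, 0.740 in C, 0.714 in D and 0.683 in E, over 30 arrays that share slides and scaling. Annotated transcripts outside the list, 317 named probes well above background on all arrays, were then ranked by their correlation with each set, and those named here were chosen from that ranking. The correlations of a set given below were all taken on deviations from the photoperiod means, averaged over its members, and not on the levels.

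Set A, with 43 members at ranks 15 to 146, varied little, with a median residual SD of 0.339. The percentile used for scaling is subtracted from every value. With photoperiod means removed from both, the set ran opposite to the log2 of that percentile: over 30 arrays r was -0.54 and rho -0.45, and r was -0.44 without the 2 arrays farthest from the median. The median pairwise correlation of the set was 0.693 after quantile normalisation, against 0.753 under the scaling used here. The part of the scaling in this set was not tested further. The closest annotated transcripts were RNA-binding protein 40 (DM01000P2, r 0.82, rho 0.77) and a proteasome subunit beta (DM02051P3, r 0.79, rho 0.82), part of the complex that degrades tagged proteins. Lysosomal alpha-glucosidase, which breaks down glycogen, ran opposite to the set (DM09425P2, r -0.79, rho -0.78).

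Set B, with 25 members, held 9 of the 10 brightest probes, and its residual SD had a median of 0.322. The mean of the set lay between 8.63 and 8.75 in the 6 animals of 12L:12D, with an SD of 0.045, against an SD of 0.322 under 4L:20D, 0.226 under 8L:16D, 0.354 under 16L:8D and 0.312 under 20L:4D. The 16L:8D animal with the fewest probes above background had the lowest value of that photoperiod, 8.12, while the other 5 lay between 8.77 and 9.10. Under quantile normalisation the median correlation within the set was 0.276, against 0.645 under the scaling used here. Probes for 26S protease regulatory subunit 6A, an ATPase of the proteasome (DM04062P3, r 0.83, rho 0.85), and for fibrillarin, which methylates ribosomal RNA (DM13190P2, r 0.83, rho 0.85), followed it.

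Set C, with 17 members at ranks 28 to 140, had a median residual SD of 0.816. Its mean lay between 6.85 and 7.45 under 4L:20D, 6.44 and 7.75 under 8L:16D, 7.18 and 7.87 under 12L:12D, 4.57 and 7.66 under 16L:8D, and 5.13 and 7.35 under 20L:4D. The low end of 16L:8D was 1 animal, chamber 1 letter B, while the low values of 20L:4D were spread over several animals. Apolipoprotein D, a carrier of small lipid-like molecules (DM02198P3, r 0.90, rho 0.81), and 6-phosphogluconate dehydrogenase, which makes NADPH in the pentose phosphate pathway (DM01085P1, r 0.89, rho 0.81), varied with it. A cellulose-cutting endoglucanase ran opposite (DM02972P1, r -0.84, rho -0.74).

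Set D, with 14 members at ranks 29 to 145, contained the 5 most variable members and both members annotated with a named protein, DM02197P1 and DM06652P1. Its mean lay between 6.94 and 8.27 under 4L:20D, 6.58 and 8.05 under 8L:16D, 4.22 and 8.05 under 12L:12D, 4.39 and 8.09 under 16L:8D, and 4.17 and 7.87 under 20L:4D. The highest animals of the 5 photoperiods lay between 7.87 and 8.27, and the SD between animals was 0.492 under 4L:20D and 0.570 under 8L:16D, against 1.72 under 12L:12D, 1.53 under 16L:8D and 1.42 under 20L:4D. Counting the 9 members of the set with a residual SD above 1, an animal had at least 1 of them more than 2 log2 units below that member's own median in 3 of 6 animals under 12L:12D, 3 of 6 under 16L:8D, 2 of 6 under 20L:4D and none under 4L:20D or 8L:16D. These 9 were picked by their wide spread, which such low animals themselves produce. A member could also enter the list through the photoperiods in which it was high, so the counts are a description only. Group XV phospholipase A2, a lysosomal lipid-degrading enzyme (DM03155P1, r 0.96, rho 0.96), and a putative cuticle protein (DM12885P2, r 0.88, rho 0.88) were among the transcripts that varied with it. DM12504P2 (r -0.83, rho -0.84) and DM03555P2 (r -0.83, rho -0.85), annotated as sulfotransferases like the member DM06652P1, ran opposite to the set. The annotation of DM06652P1 was not tested.

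Set E, with 9 members at ranks 9 to 130, included DM08998P1, the ninth brightest probe. Its mean lay between 6.38 and 8.13 under 4L:20D, 5.77 and 8.81 under 8L:16D, 6.75 and 8.87 under 12L:12D, 7.16 and 8.52 under 16L:8D, and 6.62 and 9.12 under 20L:4D, so that the photoperiods overlapped. Like set A, set E ran opposite to the percentile used for scaling (r -0.49, rho -0.43, and r -0.50 without the 2 arrays farthest from the median). Its median pairwise correlation was 0.658 after quantile normalisation, and the part of the scaling was not tested further. The closest annotated transcripts were a copper-zinc superoxide dismutase-like protein (DM00120P2, r 0.94, rho 0.94), of a family that detoxifies superoxide, and vitellogenin fused with superoxide dismutase, a yolk precursor (DM01555P3, r 0.92, rho 0.94). That vitellogenin probe itself was dim, with a mean level of -1.73, and the other one, DM00375P2, averaged 1.71. The mean deviations of sets D and E from their photoperiod means ran opposite to each other over the 30 animals (r -0.61), as did those of B and C (r -0.62).

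**Figure D4:**
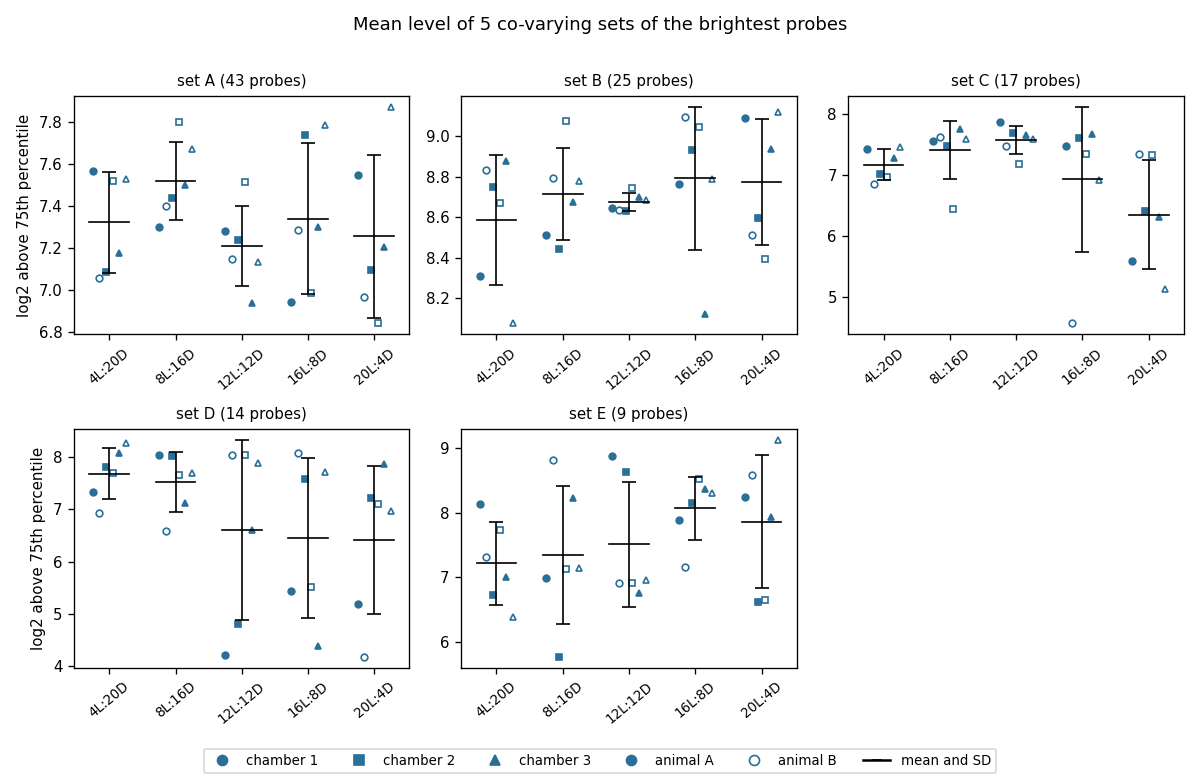
Mean level (log2 above the 75th percentile of the array) of the members of sets A to E in each of 30 animals, by photoperiod; symbols give the chamber, filled for animal A and open for animal B, with the mean and SD of 6 animals. Set D spans 4.17 to 7.87 under 20L:4D but 6.94 to 8.27 under 4L:20D, and set B stays between 8.63 and 8.75 under 12L:12D.

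Whether photoperiod changed the levels was tested with limma on all 14336 probes that could be fitted, with Benjamini-Hochberg adjustment over all of them. The rule used the mean over all arrays and not the differences tested here, but a member could enter the list through the photoperiods in which it was high. By the mean of 16L:8D alone, 138 of the members remained. DM06238P1 of set D, for example, lay between 0.61 and 8.84 under 16L:8D and between 6.06 and 9.29 under 4L:20D. The changes of such members against 16L:8D are given with this limit. None of the 150 passed an adjusted p of 0.05, where 10 of all probes did (0.0698%). At an unadjusted p under 0.01, 5 members (3.33%) and 2.23% of all probes passed, so the share of members was near that of the array. For the letter of the animal and for its interaction with photoperiod no member passed even that unadjusted limit, where 0.126% and 0.502% of all probes did.

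DM02017P1 (rank 36, set C, not annotated) had the smallest photoperiod p, 6.48e-05, with an adjusted p of 0.0695 from limma. It lay between 7.53 and 8.10 under 4L:20D (median 7.78), 8.19 and 8.43 under 8L:16D (median 8.32), 8.18 and 8.34 under 12L:12D (median 8.26), 7.62 and 8.41 under 16L:8D (median 8.05), and 7.30 and 7.79 under 20L:4D (median 7.59). The animals of 16L:8D overlapped with those of every other photoperiod. Against 16L:8D the change was -0.23 ± 0.13 under 4L:20D, 0.29 ± 0.13 under 8L:16D, 0.23 ± 0.13 under 12L:12D and -0.42 ± 0.13 under 20L:4D (log2, SE), and each had an adjusted p above 0.05. The adjusted p of its photoperiod effect was 0.0347 without 16L:8D chamber 3 and 0.0407 without the 1 animal of that chamber that had the fewest probes above background. It was 0.0106 in a model without the letter, and 0.0106 to 0.422 over the 32 alternatives run. The spot-to-spot SD of DM02017P1 was 0.157 for a single spot, against a residual SD of 0.205 for the average of its spots.

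Unadjusted limma p for photoperiod were also under 0.01 for DM01846P3 (0.00292), DM01549P2 (0.00394), DM06804P1 (0.00544) and DM06385P3 (0.00588), with adjusted p of 0.410 to 0.421 from limma. DM01846P3 (rank 32, set C) had medians of 8.65 under 4L:20D, 8.49 under 8L:16D, 8.60 under 12L:12D, 8.27 under 16L:8D and 7.12 under 20L:4D, and its 20L:4D animals, at 5.87 to 8.24, overlapped with those of 16L:8D, at 6.07 to 8.85. DM06804P1 (rank 137, no set) had medians of 6.18 under 4L:20D, 6.09 under 8L:16D, 6.55 under 12L:12D, 6.64 under 16L:8D and 6.28 under 20L:4D. In DM06804P1, 4 of 6 animals of 4L:20D and 5 of 6 of 8L:16D were below every 16L:8D animal.

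Each photoperiod was also set against 16L:8D. These 4 comparisons share the 16L:8D animals and are therefore not independent of each other. No member passed an adjusted p of 0.05 in any of them, where all probes passed at 0.0558% under 4L:20D, 0.014% under 8L:16D, 0% under 12L:12D and 0% under 20L:4D. The study's own rule, a photoperiod p under 0.01 with a pairwise p under 0.05 and a change of at least 1.5-fold, was met by no member under 4L:20D (0.579% of all probes), 1 under 8L:16D (1.03%), none under 12L:12D (0.335%) and 1 under 20L:4D (0.46%). The member under 8L:16D was DM01549P2 (rank 95, set C), which lay between 6.62 and 8.79 under 8L:16D (median 7.83) and between 3.15 and 8.05 under 16L:8D (median 6.98), with a log2 change of 1.49 ± 0.70 (SE). The member under 20L:4D was DM01846P3, with a log2 change of -0.83 ± 0.39 (SE).

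**Figure D5:**
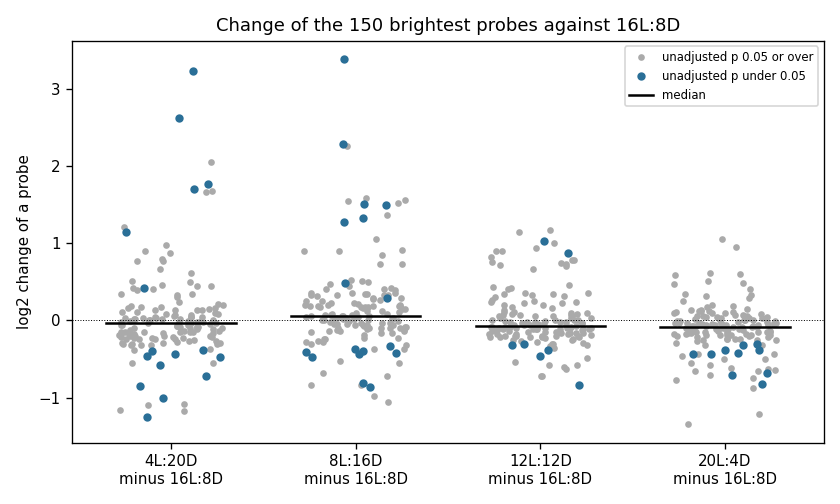
Log2 change of each of the 150 brightest probes in each other photoperiod, by rising day length, minus 16L:8D; larger dark points had an unadjusted limma p under 0.05, and the line is the median. Medians lie between -0.09 and 0.06, and the points farthest above 0 are DM06238P1, at 3.23 under 4L:20D and 3.39 under 8L:16D, with no adjusted p under 0.05.

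Medians over the members were close to those over all probes. The median log2 change was -0.04 under 4L:20D, 0.06 under 8L:16D, -0.07 under 12L:12D and -0.09 under 20L:4D, against medians over all probes of -0.05, 0.02, -0.06 and -0.01. All of these signs except that of 8L:16D depended on the scaling, since under quantile normalisation the medians were 0.11 under 4L:20D, 0.03 under 12L:12D and 0.06 under 20L:4D. Under 20L:4D 104 of the 150 members were lower than under 16L:8D and 46 were higher (30.7%, against 48.2% of all probes), but under quantile normalisation 92 were higher. The 95% interval of the change lay within 2-fold in either direction for 109 members under 4L:20D and 110 in each other comparison. For the remaining 41 and 40 the interval reached a 2-fold change, so that a change of this size was within the error of 6 animals a group. The intervals count the animals of a chamber as independent.

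Under 4L:20D, 6 members were higher (4.0%, against 2.71% of all probes) and 10 lower (6.67%, against 6.14%) at an unadjusted p under 0.05. The 2 with the smallest p were DM06804P1, with a log2 change of -0.39 ± 0.13 (SE, adjusted p = 0.560 in limma), and DM01584P1 (rank 23), which lay between 8.17 and 8.59 under 4L:20D (median 8.42) and between 8.67 and 9.14 under 16L:8D (median 8.77). DM01584P1 was the single member with all values whose animals did not overlap between 4L:20D and 16L:8D, where 0.393% of all probes did not overlap, and its change was -0.40 ± 0.13 (adjusted p = 0.560). The changes of DM06238P1 (3.23 ± 1.41, adjusted p = 0.560) and of other members of set D were larger, but the 16L:8D animals overlapped with those of 4L:20D. Members of a set vary together between animals, so the set counts here and in the comparisons below are not counts of independent observations. In set D 13 of 14 members had a higher mean under 4L:20D than under 16L:8D, with a median change of 1.43, and the median was 0.62 without the 16L:8D animal with the fewest probes above background and 2.16 with slide as a fixed block. In set E 8 of 9 members had a lower mean under 4L:20D (median change -1.08, -0.70 without chamber 3 of 4L:20D, and -1.62 with slide as a fixed block).

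Under 8L:16D, 8 members were higher (5.33%, against 6.65% of all probes) and 9 lower (6.0%, against 7.5%) at an unadjusted p under 0.05. DM01958P4, one of the steadiest members, lay between 6.60 and 6.84 under 8L:16D (median 6.75) and between 6.87 and 7.48 under 16L:8D (median 7.15). Its animals did not overlap between the photoperiods, as was so for 0.869% of all probes, and its change was -0.41 ± 0.12 (SE, adjusted p = 0.245 in limma). The change of DM06804P1 was -0.44 ± 0.13 (adjusted p = 0.245). Set D had a median change of 1.21, with 11 of 14 members higher under 8L:16D, and of 0.42 without that 16L:8D animal. In set E all 9 members had a lower mean under 8L:16D (median change -0.83, and -0.31 without chamber 2 of 8L:16D). In set A 39 of 43 members had a higher mean (median change 0.19). The direction turned with slide as a fixed block, where 17 of 43 were higher and the median was -0.04, and without 1 chamber the median was 0.06 (chamber 1 of 16L:8D) to 0.30 (chamber 3 of 16L:8D).

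Under 12L:12D, 2 members were higher (1.33%, against 0.97% of all probes) and 5 lower (3.33%, against 4.95%) at an unadjusted p under 0.05. DM06670P1 (rank 16) lay between 8.57 and 8.83 under 12L:12D (median 8.65) and between 8.79 and 9.44 under 16L:8D (median 9.06), with a change of -0.46 ± 0.16 (SE, adjusted p = 0.544 in limma). DM02775P1 did not overlap between 12L:12D (9.55 to 9.66) and 16L:8D (9.74 to 10.10), with a change of -0.31 ± 0.12 (adjusted p = 0.683). Under normexp background correction with quantile normalisation the change of DM02775P1 was 0.07. DM11755P3 did not overlap either, and 1.6% of all probes did not. All 17 members of set C had a higher mean under 12L:12D than under 16L:8D (median change 0.70), but the median was 0.21 without chamber 1 of 16L:8D and 0.43 with slide as a fixed block. All 9 members of set E had a lower mean under 12L:12D (median change -0.58), and the median was -0.12 without chamber 3 of 12L:12D and -0.28 with array quality weights.

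Under 20L:4D, no member was higher (1.51% of all probes were) and 10 were lower (6.67%, against 3.77%) at an unadjusted p under 0.05. The smallest p belonged to DM02017P1 and to DM06385P3, which lay between 6.16 and 6.69 in the 4 animals of 20L:4D with a value and between 6.47 and 6.94 under 16L:8D. The change of DM06385P3 was -0.38 ± 0.14 (SE, adjusted p = 0.935 in limma). No member was without overlap between 20L:4D and 16L:8D, against 0.0701% of all probes. In set C 16 of 17 members had a lower mean under 20L:4D, with a median change of -0.62. The median was -0.27 without chamber 3 of 20L:4D, -0.30 under quantile normalisation (-0.37 with normexp as well), -0.26 with array quality weights and -0.92 without chamber 1 of 16L:8D.

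Across the 5 photoperiods, no member passed an adjusted p of 0.05 in a test for a linear trend over the hours of light, where 0.0837% of all probes did. At an unadjusted p under 0.01, 3 members were higher with longer days (2.0%, against 1.95% of all probes) and 5 lower (3.33%, against 1.73%). The slope of DM01846P3 was -0.09 log2 units per hour of light (SE 0.022, adjusted p = 0.182 in limma) and that of DM01549P2 was -0.14 (SE 0.039, adjusted p = 0.247). In both probes the medians of the shortest 3 days were not in the order of day length, and 20L:4D had the lowest median.

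The annotated members showed no photoperiod effect that passed the test. DM02197P1, the ATP synthase lipid-binding protein, lay between 6.86 and 8.31 under 4L:20D (median 7.91), 6.79 and 8.31 under 8L:16D (median 7.67), 6.64 and 8.15 under 12L:12D (median 7.29), 6.64 and 7.96 under 16L:8D (median 7.43), and 6.17 and 7.93 under 20L:4D (median 7.25). The photoperiods overlapped, with a limma photoperiod p of 0.133 (adjusted p = 0.540). DM06652P1, annotated as a sulfotransferase, had medians of 7.19 under 4L:20D, 6.82 under 8L:16D, 6.40 under 12L:12D, 6.62 under 16L:8D and 6.14 under 20L:4D, and its lowest 16L:8D animal was at 2.34 (adjusted p = 0.560). DM08419P1, the uncharacterised protein with the repeated stretch of 9 bases, ranged from 6.18 to 9.16 under 4L:20D and from 4.57 to 8.40 under 16L:8D, with a change of 1.71 ± 0.75 (SE, adjusted p = 0.560). Adjusted photoperiod p of the other 5 ranged from 0.507 to 0.848.

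Lists of terms were searched in the study's annotation, which names only probes that the study had called. The energy list matched 4 probes, of which DM02197P1 was the only member. No member was among the 4 ribosomal protein probes, 15 translation factors, 8 yolk and egg probes, 28 probes matched by the digestion terms, 17 cuticle and chitin probes, 4 muscle and cytoskeleton probes, 2 oxygen and iron probes, 13 chaperone and ubiquitin probes and 11 probes of histones or cyclins, and no probe matched the algal terms. The digestion terms included protease and lipase, so they also matched 26S protease regulatory subunit 6A and Group XV phospholipase A2. No probe of these lists had an adjusted photoperiod p under 0.05 in limma, and the smallest, 0.0643, was in the digestion list.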

How the data were processed

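RNA from single animals, 80 ng each, was measured with 1 dye (Cy3) on Agilent arrays of 15744 spots, which lay on 9 slides. The deposited intensity values are processed signals from the Feature Extraction program, with the background subtracted but no scaling across arrays. Per the file headers its version was 10.7.3.1, while the submitters' processing notes give 9.5.1. The deposited log2 values, which the authors had shifted by a 75th percentile per array and a median per probe, served as an alternative.

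Values were log2 of the processed signal minus the 75th percentile of each array. Outlier spots, 222 in all (0.0487%), were set to missing, which left 25 of 4500 member values without a value and 2 probes unfitted. All 30 arrays entered 1 limma model (version 3.58.1, lmFit and eBayes, R 4.3.3) of photoperiod, letter and interaction, following the study's analysis of variance, and the code was tested on simulated data. Every adjusted p is from limma. The number of arrays limits the precision.

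The members and lists were chosen with earlier results of these data known. Members named were the 10 brightest, the 5 steadiest and 5 most variable, 5 by photoperiod p and 2 by p in each comparison (smallest first), those at the limit of the list and the annotated ones. Names and probe sequences came from a supplementary table of the study. Sets, their annotated neighbours and a few single probes (DM01678P1, DM11755P3 without overlap) were chosen after their values were seen.

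Alternatives changed the scaling, used the deposited values, removed dim probes or retained outlier spots, dropped the letter from the model, took chamber, slide or replicate number as a block, changed the moderation, or left out each chamber in turn. Normexp used the median signal of a spot and its local background with an offset of 50. Array quality weights and the removal of 1 array were added after the data had been seen.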

Additional observations from a re-analysis of the deposited data

Results flagged for a closer look

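Among 221 groups of 6 animals, 17 (7.69%) had 1 animal set apart from the other 5 by Dixon's criterion, where chance gives about 5%, or 1 in 20. The groups were named members, set means and array measures (shares of summed signal and members among the brightest of an array), by photoperiod. All 17 were named members or set means. The 17 came from 7 animals, 4 of them from the 16L:8D animal of chamber 3 lettered A, which had the fewest probes above background. The part of array quality in these values was not tested.

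In that animal DM01597P2 was at 8.974 (the other 5 at 9.968 to 10.3), DM08007P1 at 0.5058 (5.637 to 7.82), DM02344P1 at 2.874 (5.786 to 7.416) and the mean of set B at 8.122 (8.765 to 9.095). In the 16L:8D animal of chamber 1 lettered B, the mean of set C was 4.569 (6.92 to 7.661) and DM02109P1, a member of that set, was at 2.919 (5.798 to 7.469). In the 8L:16D animal of chamber 2 lettered B, the mean of set C was 6.444 (7.469 to 7.755), DM02109P1 was at 5.299 (6.461 to 6.915) and DM01846P3 at 7.243 (8.329 to 8.833).

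In the 20L:4D animal of chamber 1 lettered B, 2 members of set D were low, DM08007P1 at 0.3411 (the other 5 at 4.916 to 7.525) and DM09208P1 at 0.6497 (5.255 to 7.977). In the 4L:20D animal of chamber 1 lettered B, DM02344P1 was at 4.974 (7.327 to 8.357) and DM02197P1, the ATP synthase lipid-binding protein, at 6.857 (7.852 to 8.31). DM01969P1 was high at 7.477 in the 4L:20D animal of chamber 3 lettered B (6.331 to 6.694) and at 7.503 in the 12L:12D animal of chamber 2 lettered B (5.945 to 6.423). The same 2 animals had DM02924P1 at 9.384 (9.878 to 10.15) and DM01958P4 at 6.778 (7.051 to 7.194).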

How the results depend on the processing

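The number of members with an adjusted photoperiod p under 0.05 was 0 and became 1, DM02017P1, without letter in the model, in the replicate block fit, with a random block for chamber or for slide, without moderation, with array quality weights and without the 16L:8D array of chamber 3 letter A (0 to 1 when a chamber was left out). The last 2 settings were chosen after seeing the data. The fits with a block also left out the letter, as did the fit on chamber means, where the count was 0, and the fit with slide as a fixed block, where it was 0 as well. The 5 members with an unadjusted p under 0.01 became 3 under quantile normalisation, 3 with normexp as well, 3 on chamber means, 1 with slide as a fixed block and 11 with array weights (2 to 12 with a chamber left out, 12 without 16L:8D chamber 1 animals). Under the study's own calling rule, the count in 4L:20D was 0 and became 1 under quantile normalisation with or without normexp, median scaling and array weights (0 to 2 with a chamber left out). In 8L:16D it was 1 and became 0 under median scaling, without letter, with the replicate, chamber or slide block and without moderation, and 2 with array weights (0 to 2). In 12L:12D it was 0 and became 1 under quantile normalisation with or without normexp and 2 with array weights (0 to 2). In 20L:4D it was 1 and became 0 under every scaling listed, every block, array weights and no moderation (0 to 8, 8 without chamber 1 of 16L:8D). With array weights 1 member, DM01846P3, had a linear adjusted p under 0.05 (0.0295) and 8 members an unadjusted interaction p under 0.01 (0 to 5 with a chamber left out, and 0 to 1 for letter). The change of DM02775P1 in 12L:12D had the opposite sign under normexp with quantile normalisation (0.07, adjusted p = 0.9915 in limma). The cause of these shifts was not tested.

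Pairwise adjusted counts of members were 0 in all 32 alternatives. The median residual SD, 0.378, stayed within 0.351 to 0.397, and 90.7% to 100% of the members stayed in the list where it was drawn anew. Replicate numbers did not pair the chambers: deviations of chambers with the same number correlated at a median of -0.02 over 30 pairs, against 0.01 for other numbers, and with the number as a block 17 probes of the whole array had an adjusted photoperiod p under 0.05, against 19 in the fit without the block and also without letter. Over all alternatives this count was 3 to 35. All members were well above background on all arrays.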
